A study of Homo sapiens with 21 samples.

Results

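A set of 10 acute-phase genes whose proteins the liver classically secretes was followed in A549 tumors: the fibrinogen chains FGA, FGB and FGG, SERPINA1, C3, CP, LCN2, SAA1, SAA2 and ORM1. They were taken by gene symbol as fibrinogen, complement and acute-phase genes, 10 of the 60651 genes in the counts table. Of the 10, 7 passed the filter on low counts over all 21 tumors, as did 16990 genes in all. SAA1, SAA2 and ORM1 did not pass.

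RNA was sequenced from 21 subcutaneous xenografts of A549-Luc2, a luciferase-marked line of the human lung adenocarcinoma cell line A549. The cells were implanted with Matrigel into female athymic nu/nu mice aged 6 to 8 weeks, which lack T cells, and mice were randomized, 10 per group, once tumors averaged 80 to 100 mm3. The 7 control tumors came from mice that received only the vehicle, a mixture of DMSO, ethanol, PEG400 and corn oil. The 7 Oxy186 and the 7 Oxy210 tumors came from mice given that oxysterol derivative in the same vehicle at 50 mg/kg by daily oral gavage. All 3 groups thus carried the same line, implant and vehicle, and a single cancer line stands behind every value. The labels number the tumors without naming the mouse, so p-values measure the spread between these samples. The study also set Oxy186 tumors r1-r4 against control after choosing them on a principal component plot of the same data, and that contrast is given below as a choice made from the outcome.

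Acute-phase proteins are plasma proteins whose synthesis in the liver changes in inflammation, largely through interleukin-6 and STAT3, interleukin-1 and NF-κB, and the C/EBP factors. Fibrinogen is assembled from the α, β and γ chains encoded by the neighbouring genes FGA, FGB and FGG, and is cleaved by thrombin to fibrin. SERPINA1 (α1-antitrypsin) inhibits neutrophil elastase, C3 is the central component of complement, CP (ceruloplasmin) is a copper ferroxidase, LCN2 (lipocalin 2) binds bacterial siderophores, and SAA1, SAA2 and ORM1 are small lipid- or drug-binding plasma proteins. Lung epithelial cells and lung carcinoma lines can also make several of them.

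The promoters of the 4 genes that varied together between tumors, FGA, FGB, FGG and SERPINA1, are shown so that the letters shared and not shared by them can be seen. Each is the 150 bases before an annotated transcription start in RefSeq on GRCh38.p14, written 5′ to 3′ on the strand of the gene. Capitals mark matches, on either strand, to a set of short motifs described after the sequences.
FGA chr4:154590743-154590892 (minus strand): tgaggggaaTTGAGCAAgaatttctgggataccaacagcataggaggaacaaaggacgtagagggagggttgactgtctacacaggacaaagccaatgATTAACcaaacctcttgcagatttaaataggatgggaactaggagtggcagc
FGB chr4:154562830-154562979 (plus strand): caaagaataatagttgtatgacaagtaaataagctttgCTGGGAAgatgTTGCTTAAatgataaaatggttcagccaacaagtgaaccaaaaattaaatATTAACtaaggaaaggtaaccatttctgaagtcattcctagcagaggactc
FGG chr4:154612657-154612806 (minus strand): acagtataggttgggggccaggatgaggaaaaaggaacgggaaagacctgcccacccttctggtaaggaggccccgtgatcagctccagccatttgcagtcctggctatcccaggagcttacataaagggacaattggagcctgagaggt
SERPINA1 chr14:94388603-94388752 (minus strand): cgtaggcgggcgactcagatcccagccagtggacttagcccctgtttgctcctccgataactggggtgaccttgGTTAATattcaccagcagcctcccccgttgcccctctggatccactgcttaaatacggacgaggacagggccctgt

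The capitals in FGA are one C/EBP match and one HNF1 match, those in FGB an interleukin-6 response element, a C/EBP match and an HNF1 match, and those in SERPINA1 an HNF1 match. The letters searched over the 250 bases before a start, on both strands, were GTTAAT for HNF1, present in 6.23% of 35116 promoters, and TTGCNNAA for C/EBP, present in 9.05%. The interleukin-6 response element was searched as CTGGGAA, present in 9.15%, the STAT motif as TTCNNNGAA, present in 6.57%, and the NF-κB motif as GGGANNNTC, present in 13.3%. HNF1 matches lay 52 bases before the FGA start, 51 before the outer FGB start shown and 76 before the inner SERPINA1 start shown, and none was found before FGG. The window of the outer SERPINA1 start, which is not shown, held none of the motifs. The FGG window held a CTGGGAA 161 bases before the start, outside the bases shown, and the FGA window a STAT match at 231. In LCN2, which has overlapping NF-κB matches on the opposite strands and a C/EBP match at 143, no HNF1 match was found, and the ORM1 window held none of the motifs. RefSeq entries were matched for 6 of the 10 members, in 8 windows because FGB and SERPINA1 each had a second start. A match is a description of letters and was not tested for binding.

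Depth was alike in the groups, with total counts on human genes from 13818998 to 17865119 in control, from 14008787 to 15776682 in Oxy186 and from 13787493 to 15758662 in Oxy210 tumors. Reads had been aligned to a combined human and mouse genome and only uniquely mapped human reads were counted, so the values describe RNA assigned to human genes. Values are CPM, counts scaled to a common library total after TMM, a normalization that aligns most genes between libraries. The libraries differed in how counts changed with the GC content of a gene. The slope, in log2 units per 10 percentage points of exon GC, ranged between -0.51 and -0.18 in Oxy186 r1-r4 and between 0.079 and 0.49 in the remaining Oxy186 tumors, with -0.15 to 0.40 in control and -0.33 to 0.26 in Oxy210 tumors. Each test was therefore repeated with this trend entered as offsets.

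The tumors carried an epithelial and not a hepatocyte RNA profile. The epithelial markers KRT8, at 51847 to 127913 counts per tumor, KRT18, at 30308 to 73819, and AKR1B10, at 21063 to 53381, were abundant in all 21 tumors, while the lung-lineage markers SFTPC, SFTPB and NKX2-1 had at most 8, 4 and 2 counts. Of 10 hepatocyte markers 6 passed the filter, and the 10 together reached 5.00 to 22.8 CPM in control, 8.79 to 28.1 in Oxy186 and 8.23 to 19.1 in Oxy210 tumors. TTR had the most, at 35 to 303 counts per tumor, ALB (albumin) had 2 to 36, and APOB, APOA2 and SERPINA7 had 0 in all 21. The 10 neutrophil and macrophage markers, of which 4 passed the filter, summed to 11.1 to 30.5 CPM in control, 12.5 to 19.7 in Oxy186 and 12.1 to 17.5 in Oxy210 tumors, with S100A8 at 0 in 21 tumors and MPO at 0 in 20. The 4 that passed were LYZ, at 49 to 401 counts per tumor, ADGRE1 (35 to 100), CD14 (6 to 60) and S100A9 (1 to 36). The 10 fibroblast and endothelial markers, of which 5 passed, summed to 116 to 232, 102 to 263 and 77.9 to 159 CPM. Host cells in these tumors are of mouse and only human reads were counted, so these sums do not measure host immune or stromal cells. The name liver-type therefore refers to where these proteins are classically made and not to the identity of the cells.

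Per kilobase of exon, the fibrinogen genes were the highest of the members in control tumors. The median level was 147 CPM per kilobase for FGA (range 77.8 to 208, n = 7), 138 for FGG (75.0 to 179) and 103 for FGB (58.6 to 139). FGA stood above 99.2%, FGG above 99.2% and FGB above 98.9% of the 24933 genes with a level above 0. LCN2 followed at 49.0 (20.2 to 127), CP at 42.2 (30.0 to 77.8), SERPINA1 at 35.3 (18.9 to 61.2) and C3 at 26.9 (18.2 to 43.4). C3 still stood above 94.6% of these genes.

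**Figure D1:**
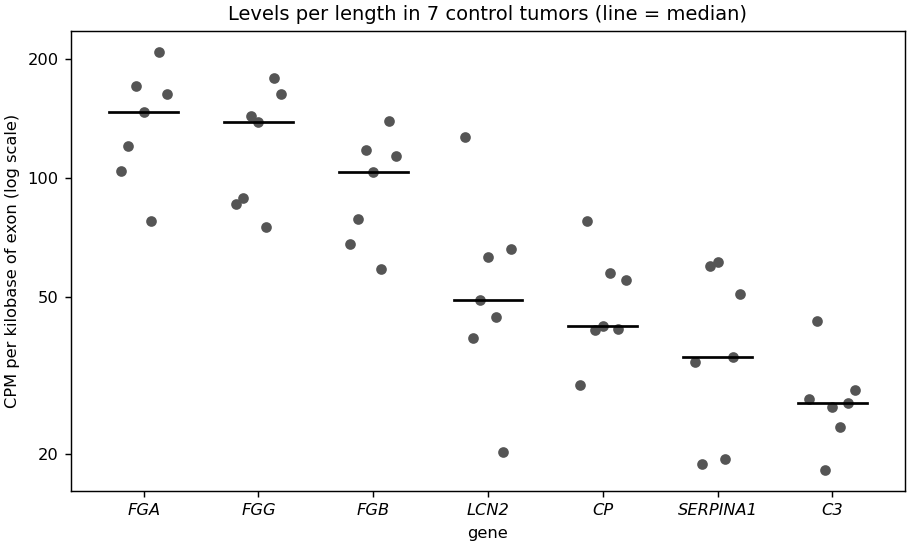
Level of the 7 expressed members in each of the 7 control tumors, in CPM per kilobase of exon on a log scale, with the median as a line. FGA, FGG and FGB lie highest, with medians of 147, 138 and 103, and the ranges of neighbours in the order overlap.

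The ranges of all neighbours in this order overlapped. FGA exceeded FGG, and FGG exceeded FGB, in 7 of 7 control tumors, and FGB exceeded LCN2 in 6 of 7. LCN2 against CP and CP against SERPINA1 were each in that order in 4 of 7 tumors, and SERPINA1 against C3 in 5 of 7. The order rests on exon lengths from GENCODE 44, in which all exons of a gene are joined. By the longest annotated transcript the median was 240 for FGG and 157 for FGA, so the order of these genes depended on the length used. CP shares 20.1% of its exon bases with HPS3 on the opposite strand and C3 shares 11.7% with ENSG00000276980 on its own strand, and whether reads were counted by strand is not given in the sources used here, so levels of CP and C3 are less certain.

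SAA1, SAA2 and ORM1 were at the edge of detection at this depth. SAA1 had 0 to 2 counts per tumor and 0 in 15 of 21 tumors, with 9 counts in all. SAA2 had 0 to 2 counts, 0 in 16 tumors and 7 counts in all, and ORM1 had 0 to 4 counts and 0 in 15 tumors. ORM2, the near copy of ORM1, had 0 to 5 counts and 0 in 14 tumors. A count of 0 allows up to 3 counts by counting error alone. These genes have near-identical copies, and reads that map equally well to both copies were not counted, so the counts can understate the RNA present. No fold change is given for them in any comparison.

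Fibrinogen, the 3 chains together, made up 0.0846% to 0.209% of all counts in control tumors (median 0.134%), 0.113% to 0.265% in Oxy186 (median 0.216%) and 0.125% to 0.305% in Oxy210 tumors (median 0.208%). The medians of both treated groups were higher and the ranges overlapped with control. In bulk tumors, fewer cells of a type and less RNA per cell cannot be told apart. The FGA level per kilobase was 1.33 to 1.53 times that of FGB in control, 0.991 to 1.70 times in Oxy186 and 1.09 to 1.70 times in Oxy210 tumors. For FGG over FGB the ratio was 1.13 to 1.44 in control, 0.948 to 1.43 in Oxy186 and 0.990 to 1.2 in Oxy210 tumors, and for FGA over FGG it was 1.00 to 1.35, 0.825 to 1.30 and 1.00 to 1.42. The ranges of each ratio thus overlapped between the groups. In control, Oxy186 and Oxy210 tumors the medians were 1.45, 1.27 and 1.35 for FGA over FGB. They were 1.28, 1.15 and 1.07 for FGG over FGB, and 1.16, 1.05 and 1.31 for FGA over FGG. For FGG over FGB every Oxy210 tumor but r1, at 1.2, lay below the lowest control, at 1.13. Differences in these ratios were not tested.

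FGA (ENSG00000171560.16, GRCh38 chr4:154583126-154590742, minus strand) encodes the α chain. It was measured at 304.7, 575.3 and 813.2 CPM (lowest, median and highest) in control, at 419.8, 769.0 and 912.0 in Oxy186 and at 433.3, 866.3 and 1225 in Oxy210 tumors. Above every control tumor were 3 of 7 Oxy186 and 4 of 7 Oxy210 tumors, and the groups overlapped. FGB (ENSG00000171564.12, chr4:154563011-154572807, plus strand), the β chain, had 256.3, 452.6 and 606.7 CPM in control, 378.9, 678.2 and 865.9 in Oxy186 and 411.8, 682.4 and 804.5 in Oxy210 tumors. Here 4 of 7 tumors of each treated group exceeded all controls. FGG (ENSG00000171557.17, chr4:154604134-154612967, minus strand), the γ chain, had 270.1, 497.5 and 643.2 CPM in control, 359.7, 650.3 and 834.8 in Oxy186 and 362.3, 602.2 and 792.9 in Oxy210 tumors. All controls were exceeded by 4 of 7 Oxy186 and 2 of 7 Oxy210 tumors.

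SERPINA1 (ENSG00000197249.14, chr14:94376747-94390693, minus strand) had the widest spread. It had 92.65, 172.9 and 300.2 CPM in control, 94.14, 433.6 and 677.1 in Oxy186 and 103.1, 404.7 and 755.7 in Oxy210 tumors. Each treated group held 4 of 7 tumors above all controls, next to tumors at the bottom of the control range, and the whole series spanned 8.16-fold. The within-group SD of log2 CPM was 0.99, larger than in 99.8% of the 6083 genes whose mean log2 CPM reached 5, for which the median SD was 0.267. FGA (0.52), FGG (0.48), FGB (0.44), C3 (0.44), CP (0.51) and LCN2 (0.61) were also more variable than the median gene.

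C3 (ENSG00000125730.17, chr19:6677704-6730562, minus strand) had 211.1, 311.7 and 502.3 CPM in control, 275.4, 387.9 and 623.6 in Oxy186 and 257.0, 395.6 and 605.8 in Oxy210 tumors. CP (ENSG00000047457.14, chr3:149162410-149221829, minus strand) had 211.9, 298.6 and 550.0 in control, 210.8, 341.3 and 642.6 in Oxy186 and 291.2, 391.6 and 639.0 in Oxy210 tumors. LCN2 (ENSG00000148346.12, chr9:128149071-128153453, plus strand) had 32.29, 78.23 and 202.5 in control, 47.69, 78.44 and 117.1 in Oxy186 and 39.12, 66.36 and 96.91 in Oxy210 tumors. The 3 groups overlapped for each of these genes, and no treated tumor exceeded the highest control for LCN2. That control was the single tumor r1 at 202.5 CPM. The next highest control, r7, had 105.0 CPM, below Oxy186 r6 at 117.1.

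**Figure D2:**
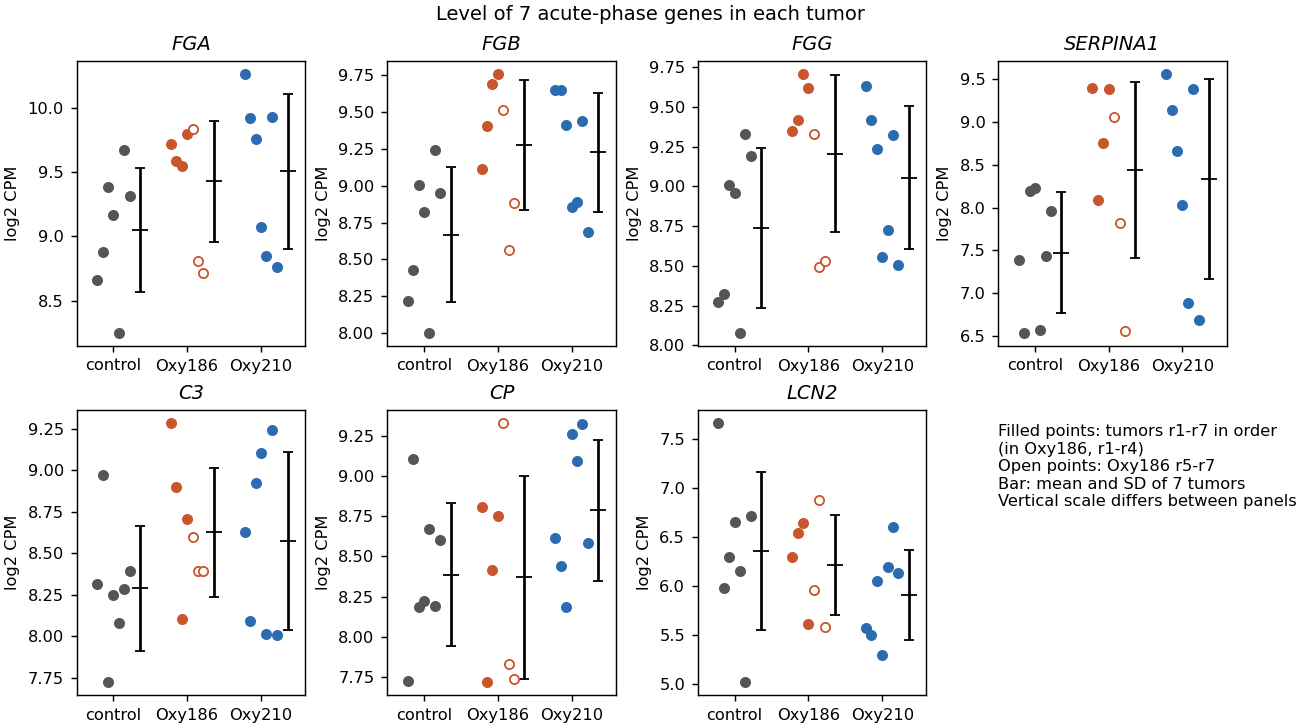
Log2 CPM of each expressed member in each tumor, with 7 tumors per group and the mean and SD as a bar. Open points are Oxy186 r5-r7. SERPINA1 reaches 755.7 CPM in the highest Oxy210 tumor and 92.65 CPM in the lowest control, and all 3 groups overlap in every panel.

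The first question was whether Oxy186 changed these genes against vehicle. None of the 7 tested members passed a fold change over 2 with an adjusted p at or under 0.05, the rule used for a call, and neither did any of 16291 genes (0%) in edgeR, where 618 had an unadjusted p under 0.05. By limma voom and by DESeq2 0 genes were called as well. SERPINA1 was 1.07 higher on the log2 scale (SE 0.37, 95% interval 0.29 to 1.86) and FGB 0.58 higher (SE 0.21, interval 0.14 to 1.03), and both had an adjusted p of 0.862 in edgeR's quasi-likelihood test. These were the 2 members at an unadjusted p under 0.05, both higher, as were 1.44% of all genes tested. FGG differed by 0.44 (interval -0.045 to 0.93), FGA by 0.36 (-0.11 to 0.82), C3 by 0.33 (-0.096 to 0.75), CP by 0.016 (-0.53 to 0.57) and LCN2 by -0.26 (-0.90 to 0.38). The median over the 7 members was 0.36, with -0.0067 over all genes tested. With offsets for GC content CP and LCN2 changed sign, at -0.072 and 0.072.

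Against the same 7 control tumors, Oxy210 gave no call among the members and 0 of 16396 genes passed (0%) in edgeR, where 2270 had an unadjusted p under 0.05. By limma voom 0 genes and by DESeq2 22 genes were called, none of them a member. SERPINA1 was 1.08 higher on the log2 scale (SE 0.40, interval 0.25 to 1.92, adjusted p = 0.291 in edgeR's quasi-likelihood test), FGB 0.56 higher (SE 0.20, interval 0.15 to 0.97, adjusted p = 0.280) and FGA 0.51 higher (SE 0.24, interval 0.011 to 1.01, adjusted p = 0.347). These 3 members were at an unadjusted p under 0.05 and higher, as were 5.72% of all genes tested. The interval of every other member included 0. FGG differed by 0.32 (-0.13 to 0.77), C3 by 0.34 (-0.11 to 0.79), CP by 0.42 (-0.030 to 0.87) and LCN2 by -0.54 (-1.15 to 0.065). The median over the 7 members was 0.42, with 0.0086 over all genes. With GC offsets FGA no longer had an unadjusted p under 0.05 (adjusted p = 0.411).

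In both treated groups the levels were high in part of the tumors. Oxy210 r1, r2, r3 and r6 were the 4 highest of the group for FGA, FGB, FGG and SERPINA1 alike, with SERPINA1 at 755.7, 563.2, 404.7 and 667.5 CPM. In Oxy210 r5 and r7 SERPINA1 was 118.1 and 103.1 CPM, within the control range. In the Oxy186 group r6 and r7 were the 2 lowest for these 4 genes, with SERPINA1 at 226.6 and 94.14 CPM, whereas r5 stood at 534.0. These tumors are named from their values and were not compared as groups.

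The 2 oxysterols were compared directly at the same dose, as 1 pair of compounds. No member and none of 16361 genes passed (0%) in edgeR, where 664 had an unadjusted p under 0.05, and limma voom and DESeq2 called 0 genes. No member had an unadjusted p under 0.05, as against 4.06% of genes in either direction and 3.14% that were higher with Oxy186, and the adjusted p was 0.9996 for each member. Oxy186 minus Oxy210 was 0.014 for SERPINA1 on the log2 scale (interval -0.94 to 0.97), -0.13 for FGA (-0.64 to 0.39), 0.050 for FGB (-0.37 to 0.47) and 0.15 for FGG (-0.31 to 0.61). It was 0.0092 for C3 (-0.46 to 0.48), -0.37 for CP (-0.91 to 0.17) and 0.31 for LCN2 (-0.18 to 0.80). A difference of nearly 2-fold in SERPINA1 lies within its interval in either direction, so the data do not show that the compounds act alike.

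**Figure D3:**
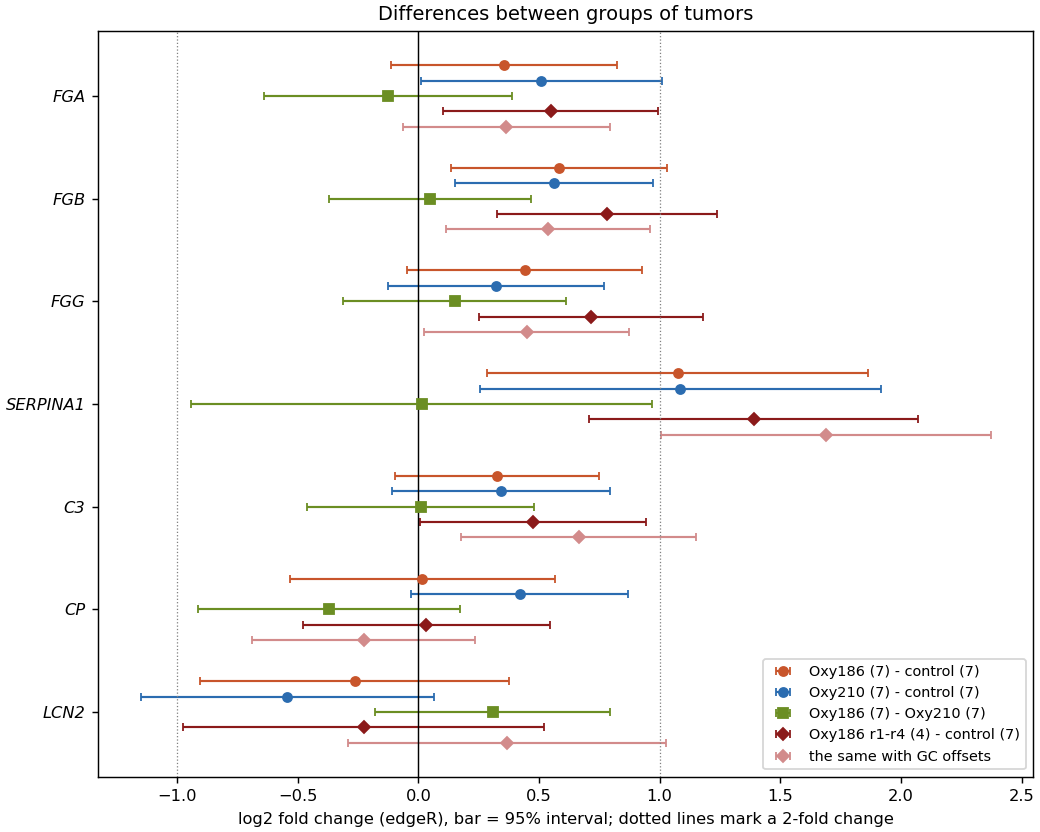
Log2 fold change of the 7 tested members in the 4 comparisons, with 95% intervals from edgeR. The contrast of Oxy186 r1-r4 is shown without and with offsets for GC content, and SERPINA1 lies farthest to the right, at 1.39 and 1.69.

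In the contrast of Oxy186 r1-r4 with control, which rests on tumors chosen from these data, 1406 of 16852 genes were called (8.34%), of which 36 were higher (0.214%). SERPINA1 was the member called, at 273.3 to 677.1 CPM in the 4 tumors, with a log2 fold change of 1.39 (SE 0.32, interval 0.71 to 2.07, adjusted p = 0.00777 in edgeR's quasi-likelihood test), which is 2.62-fold. Its value was 677.1 in r1, 273.3 in r2, 433.6 in r3 and 670.8 in r4, so that 3 of 4 tumors lay above every control. With GC offsets it was 1.69 (interval 1.00 to 2.37, adjusted p = 0.00977) and was still called. The calls over all genes fell from 1406 to 202 with these offsets, or 1.2%.

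FGB rose by 0.78 on the log2 scale (SE 0.21, adjusted p = 0.0193) and FGG by 0.72 (SE 0.22, adjusted p = 0.0324) in edgeR's test without reaching 2-fold, and 797 genes, or 4.73%, passed the adjusted p and were higher. FGG had 650.3, 683.3, 834.8 and 787.0 CPM in r1 to r4, the lowest just above the highest control at 643.2. The share of all genes that separate these chosen tumors from control is not given here, so this separation is a description. After removal of the GC trend the groups overlapped, with FGG at 9.158 log2 CPM in Oxy186 r1 and 9.325 in control r6. With GC offsets the adjusted p was 0.147 for FGB and 0.239 for FGG, and leaving out one of the 4 tumors gave adjusted p-values from 0.0162 to 0.0641 for FGB and from 0.0406 to 0.0962 for FGG. FGA differed by 0.55 (adjusted p = 0.0766), C3 by 0.48 (adjusted p = 0.140), CP by 0.034 (adjusted p = 0.936) and LCN2 by -0.23 (adjusted p = 0.680). At an unadjusted p under 0.05 there were 5 members, all higher, against 13% of genes. The exon GC content is 36.4% for FGG, 40.1% for FGB, 43.2% for FGA and 38.4% for CP, against 54.2% for SERPINA1, 53.1% for C3 and 58.0% for LCN2. The part of the library slope in these differences was not tested beyond the fit with offsets.

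Tumor to tumor, the 3 fibrinogen chains and SERPINA1 varied together. Over the 21 tumors Pearson's r of log2 CPM was 0.947 for FGB and FGG (Spearman's rho 0.944), 0.928 for FGA and FGG (rho 0.849) and 0.912 for FGA and FGB (rho 0.886), and the permutation p of each r was 1e-05, the lowest value possible with 100000 permutations. SERPINA1 followed FGA at r = 0.882 (rho 0.873, permutation p = 1e-05), FGG at 0.827 (rho 0.806, permutation p = 3e-05) and FGB at 0.789 (rho 0.804, permutation p = 7e-05). The permutation p of rho was at most 6e-05 for each. These 6 of the 21 pairs computed passed an adjusted p at or under 0.05 over the pairs, with adjusted p from 5.25e-05 to 0.000245. Within groups, r of FGB and FGG was 0.979 in control, 0.928 in Oxy186 and 0.986 in Oxy210 tumors (n = 7 each), and r of FGA and SERPINA1 was 0.654, 0.894 and 0.970. Without the 2 tumors farthest from the median, the 6 values of r ranged from 0.778 for FGB and SERPINA1 to 0.927 for FGB and FGG.

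C3, CP and LCN2 did not follow them. With the other members, the largest r was 0.392 for C3 (with SERPINA1, rho 0.365, adjusted p = 0.236) and 0.351 for CP (with C3, rho 0.342, adjusted p = 0.250). LCN2 had a negative r with all 6 other members, down to -0.366 with FGB (rho -0.304, adjusted p = 0.238). Signs differed between groups for some pairs, with r of SERPINA1 and CP at -0.544 in control, 0.809 in Oxy186 and -0.124 in Oxy210 tumors.

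The GC slope of a library had r of -0.468 with FGG (rho -0.490), -0.464 with CP (rho -0.487) and -0.441 with FGB (rho -0.417) over the 21 tumors, with permutation p = 0.0329, 0.0353 and 0.0450 for r and an adjusted p of 0.105 for each over the 7 relations computed. With the 2 most extreme slopes left out, r was -0.279, -0.558 and -0.241. For FGG it was -0.401 in control, -0.911 in Oxy186 and 0.640 in Oxy210 tumors, and for FGB -0.331, -0.839 and 0.680, so the sign differed between groups for both. For CP it was -0.627, -0.376 and -0.795, negative in each. After removal of the GC trend the 6 correlations of fibrinogen and SERPINA1 stayed between 0.769 and 0.934.

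**Figure D4:**
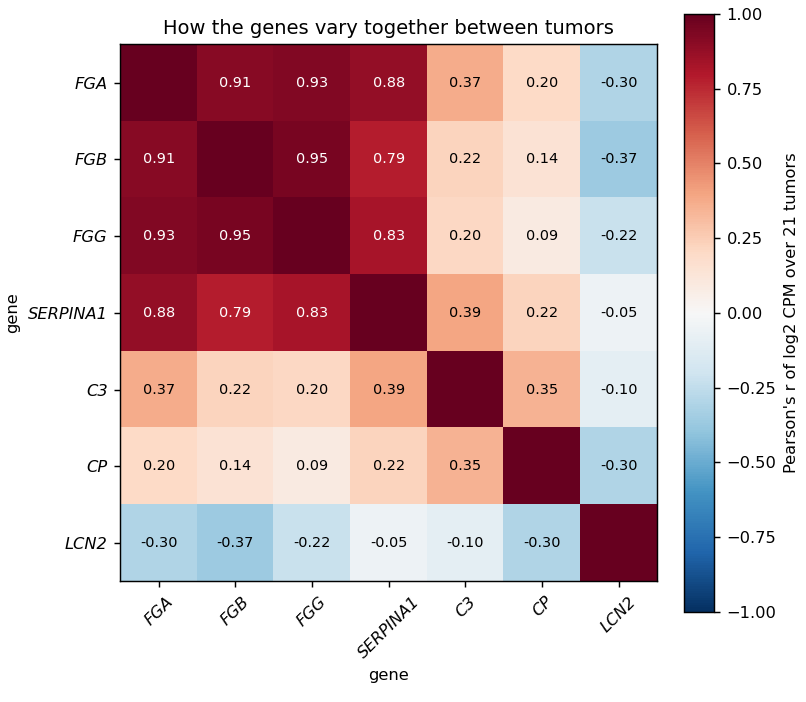
Pearson's r of log2 CPM over 21 tumors for each pair of the 7 expressed members, with red for positive and blue for negative values. FGA, FGB, FGG and SERPINA1 form a block from 0.789 to 0.947, and LCN2 is negative with each other gene.

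Among 13601 genes whose mean log2 CPM reached 1, those most like the mean of FGA, FGB and FGG over the 21 tumors were SNAP25 (r = 0.904), RFX6 (0.892), GSDME (0.871), KCNJ16 (0.869) and OR2I1P (0.868). They are named by rank, and this r is a description. SNAP25 is a SNARE protein of vesicle release and RFX6 a transcription factor of pancreatic endocrine cells, GSDME a pore-forming gasdermin and KCNJ16 an inwardly rectifying potassium channel. SERPINA1, at 0.854, would stand at place 10 of the ranking. C3 had 0.274, CP 0.151 and LCN2 -0.304. Likeness to SAA1 and SAA2 could not be ranked, since both were below the filter.

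The wider repertoire of liver-secreted proteins was mostly low. Of 41 further acute-phase and liver-secreted genes, 23 passed the filter over all tumors, and HP (haptoglobin) and CRP (C-reactive protein), singled out after their values were seen, had at most 3 and 8 counts. The highest in control tumors were FN1 (fibronectin) at 49.7 CPM per kilobase, FGL1 (a fibrinogen-like liver protein) at 44 and VTN (vitronectin) at 33.6. In the comparisons of 7 with 7 tumors 0 of 22 to 23 genes tested passed the adjusted p, and 2, 3 and 0 had an unadjusted p under 0.05 for Oxy186, Oxy210 and Oxy186 against Oxy210. Of all genes, 3.79%, 13.8% and 4.06% had such an unadjusted p in edgeR's test. In r1-r4 against control APOH (log2 difference 0.71, adjusted p = 0.0234) and FN1 (0.66, adjusted p = 0.0450) rose by edgeR's test without reaching 2-fold, 2 of 22 genes tested, where 19.7% of all genes passed the adjusted p in either direction. With GC offsets neither of them passed, while RBP4 and F7 did and 1 of this pair was called, against 4.05% of all genes passing. APOH, RBP4 and F7 are named after their values were seen. The median of the 22 genes was 0.087 without offsets, with 0.0060 over all genes.

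Of 21 complement genes, 17 to 19 were tested, and 0 passed the adjusted p in the comparisons of 7 with 7 tumors. At an unadjusted p under 0.05 there were 2 for Oxy186, 4 for Oxy210 and 3 between the compounds in edgeR's test. The shares of all genes were 3.79%, 13.8% and 4.06%. CFD (factor D) at 35.2 CPM per kilobase, CD46 at 28.2 and CD59 at 22.2 were highest in control tumors, the last pair being regulators that protect cells from complement. In r1-r4 C8G, a subunit of C8, fell by 1.18 on the log2 scale (adjusted p = 0.0386 in edgeR) and was the 1 complement gene called, of 19 tested, beside 8.34% of all genes. With GC offsets 0 of the 19 passed the adjusted p in edgeR and 5 had an unadjusted p under 0.05, beside 18.7% of all genes.

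Among 35 regulators of the acute phase, 32 to 33 were tested. IL6 had 0 to 13 counts and OSM 0 to 4 per tumor, both below the filter and singled out after their values were seen. CEBPB at 39.0 CPM per kilobase, CEBPD at 38.3 and FOXA1 at 26.8 were the highest in control tumors. For Oxy186, Oxy210 and Oxy186 against Oxy210, 0 passed the adjusted p in edgeR's test and 5, 8 and 0 had an unadjusted p under 0.05. The shares of all genes at that unadjusted p were 3.79%, 13.8% and 4.06%. In r1-r4 against control 4 were higher and 9 lower at the adjusted p, of 32 tested, and 6 of the lower were called, beside 19.7% of all genes passing the adjusted p and 8.34% called. These were CEBPA (fell by 2.27 on the log2 scale, adjusted p = 0.00114), SOCS3 (fell by 1.11), RELA (fell by 1.03), LIF (fell by 1.19), CEBPB (fell by 1.21) and FOXA3 (fell by 1.01). CEBPA and CEBPB are C/EBP factors, SOCS3 restrains interleukin-6 signalling, RELA is an NF-κB subunit, LIF a cytokine of the interleukin-6 family and FOXA3 a forkhead factor of liver. With GC offsets none of the 32 was called, beside 1.2% of all genes. CEBPA, CEBPD and RELB passed the adjusted p, beside 4.05% of all genes, with RELB named after its values were seen. Of these, 2 were higher and 1 lower. Without offsets each of them was lower, CEBPD at -0.44 and RELB at -0.38, so 2 of them changed direction with the offsets.

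Iron and copper handling genes, the processes CP and LCN2 belong to, were all tested, 12 of 12. FTL (ferritin light chain) stood at 4520 CPM per kilobase in control tumors, FTH1 (ferritin heavy chain) at 181 and SLC40A1 (the iron exporter ferroportin) at 16.9. In edgeR's test 0 passed the adjusted p in the comparisons of 7 with 7 tumors, with 1, 0 and 1 at an unadjusted p under 0.05. Over all genes the shares at that unadjusted p were 3.79%, 13.8% and 4.06%. In r1-r4 FTH1 fell by 3.09 on the log2 scale (SE 0.42, adjusted p = 0.000639) and SLC22A17, a lipocalin 2 receptor, fell by 1.31 (adjusted p = 0.00931). These were 2 of 12 genes called, beside 8.34% of all genes, and 1370 of the 1406 calls over all genes were lower. FTH1 was also called with GC offsets, beside 1.2% of all genes, and SLC22A17 was not. Ferritin genes have many processed copies, so uniquely mapped counts of FTH1 are uncertain.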

How the data were processed

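RNA-seq of 21 xenograft tumors was analysed, grouped by treatment as the labels give it. The authors trimmed reads with Trimmomatic 0.39, aligned them with STAR 2.7.6a to combined human (GRCh38.p13) and mouse (GRCm39) genomes and counted uniquely mapped human reads with featureCounts of Subread 2.0.1. They deposited raw counts for 60651 genes, and log2 CPM values for control and Oxy186 r1-r4 tumors, which were recomputed here to within 4.97e-14 over 16852 genes. No pair of tumors in a group agreed within sampling noise (lowest chi-square over its degrees of freedom 12.1).

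Counts were tested with edgeR 4.0.16 (R 4.3.3) by filterByExpr, TMM and the quasi-likelihood test, and p-values were adjusted by Benjamini-Hochberg over every gene tested. A call needed an adjusted p of at most 0.05 together with more than a 2-fold change. Levels used log2 CPM (prior count 2). Lengths and GC content came from GENCODE 44 (GRCh38), and GC trends were splines with 4 degrees of freedom. Correlations used 100000 two-sided permutations. Promoters came from RefSeq on GRCh38.p14. Python 3.11.15 with numpy 2.4.6 was used.

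Alternatives were limma 3.58.1 voom, DESeq2 1.42.0, RLE and library-size scaling, other filters, one fit of all tumors, GC offsets, a replicate block, calls by adjusted p only, and omission of r1, r2, r3 or r4 in turn. The members and lists were chosen with earlier results of these data known. Named genes were the members, ORM2, per list the called genes (at most 6 by adjusted p) and the 3 highest per kilobase in control, and the 5 most like fibrinogen. Other genes are said to be singled out or are markers. The result of a gene on the complement list is not reported here.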

Additional observations from a re-analysis of the deposited data

Results flagged for a closer look

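None of the 21 groups of 7 tumors examined, 7 members in each of the 3 treatment groups, held a tumor farther from the others than Dixon's 95% critical value allows, with 1.05 expected by chance.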

How the results depend on the processing

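SERPINA1 was called in r1-r4 against control under all 14 alternatives, with log2 fold changes from 1.23 to 1.69 and adjusted p from 1.88e-05 to 0.0333. Each of these alternatives kept tumors chosen from the same data, so none tests that choice. With all 7 Oxy186 tumors against control SERPINA1 was called under 0 of 10 alternatives, with adjusted p from 0.611 to 0.9997. Of 308 log2 fold changes of members under an alternative, 291 kept their direction and side of the threshold and 17 changed sign, none of them called. For Oxy186 against control these were CP at -0.037 (limma voom), -0.072 (GC offsets), -0.028 (replicate block) and -0.12 (block with GC offsets), and LCN2 at 0.072 and 0.12 with GC offsets, without and with the block. For Oxy186 against Oxy210 they were FGB at -0.0097 (GC offsets), SERPINA1 at -0.0064 and C3 at -0.019 (library size alone), and C3 at -0.0022 (at least 10 counts in every library). For r1-r4 they were CP at -0.23 (GC offsets, with and without the block), -0.091 without r1 and -0.031 without r4 (-0.091 to 0.22 over the 4 omissions), and LCN2 at 0.37 (GC offsets), 0.29 (block with GC offsets) and 0.0046 without r4 (-0.35 to 0.0046 over the omissions). Genes called for Oxy210 against control were 22 by DESeq2, 7 with no filter and 1 with the replicate block, and for Oxy186 against Oxy210 were 1 with no filter, with all tumors in one fit, with GC offsets and with the block and GC offsets. For r1-r4 they were 202 with GC offsets, 62 with the block and GC offsets, 3323 by the adjusted p alone (3 members) and 997 to 1604 with one tumor left out, when 1 member was called each time. The cause of these changes was not tested.

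No pairing by replicate number was seen in the log2 CPM values, where the correlation of same-numbered tumors of different groups ran from -0.40 to 0.33. Low correlations cannot show that same-numbered tumors had no handling in common. In 1 of 21 such pairings the same-numbered tumor was the best match. The replicate block changed no call of a member.

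Of 105 correlations under an alternative, 97 kept sign and side of the threshold. Those that changed sign were, with the GC trend removed, FGB and CP (-0.063), FGG and CP (-0.19), SERPINA1 and LCN2 (0.093) and C3 and LCN2 (0.077), with group means subtracted SERPINA1 and LCN2 (0.041), and without Oxy186 r5-r7, chosen after seeing the data, CP with FGA (-0.033), FGB (-0.022) and FGG (-0.13). By the longest transcript, levels per kilobase were 240 for FGG, 89.2 for LCN2, 67.1 for CP and 59.6 for C3. SAA1, SAA2 and ORM1 had too few counts to be tested.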
